A study of Mus musculus with 12 samples.

Results

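The 6 genes of the type IV collagen family, *Col4a1* to *Col4a6*, were followed in RNA sequencing of whole mouse hearts after acute myocardial infarction (AMI). They were taken by symbol, and all 6 are among the 53801 genes of the deposited tables. The family was selected on the CPM values of *Col4a3* and *Col4a4*, which were low on day 1 and above sham on day 7. The values of these 2 genes are therefore described without a test, while the other 4 chains, which played no part in that choice, were tested. Adult male C57BL/6N mice, with no allele named beyond the strain, had a sham operation or permanent ligation of the left anterior descending coronary artery, and hearts were taken 1 day (day 1 AMI) or 7 days (day 7 AMI) later. How long after surgery the sham hearts were collected is not given in the sources used here. Each of the 3 groups held 4 hearts with 1 library each, and the labels name no separation of infarcted from spared muscle.

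Type IV collagen is the network-forming collagen of basement membranes, the thin sheets that surround cardiomyocytes and underlie the endothelium of every vessel. Its chains assemble inside the cell into trimers of fixed composition. The products of *Col4a1* and *Col4a2* form the trimer present in nearly all basement membranes, those of *Col4a3*, *Col4a4* and *Col4a5* form the trimer known from the kidney glomerulus and the lung alveolus, and those of *Col4a5* and *Col4a6* form one known from smooth muscle and some epithelia. Loss of the *Col4a3*, *Col4a4* or *Col4a5* product causes Alport syndrome.

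The genes lie in 3 pairs, each pair head to head on opposite strands. In the GRCm38 build, *Col4a1* (minus strand, chr8:11198423-11312826) and *Col4a2* (plus strand, chr8:11312805-11449287) overlap by 22 bases at their starts in the GENCODE annotation. *Col4a4* (minus strand, chr1:82448423-82586849) and *Col4a3* (plus strand, chr1:82586921-82722059) have 71 bases between their starts. *Col4a6* (minus strand, chrX:141165403-141474076) and *Col4a5* (plus strand, chrX:141475385-141689234) are the loosest pair, with 1308 bases between their starts. The stretches between or before the starts are shown because the genes compared below as pairs are read outward from them. They are plus-strand RefSeq sequence of GRCm38, with capitals marking a GC box (GGGCGG) or a CCAAT box (CCAAT) on either strand. The stretches of *Col4a6* and *Col4a5* stop at the gene ends of RefSeq, which differ from the GENCODE starts.

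*Col4a1*/*Col4a2*, shared start, chr8:11312805-11312826: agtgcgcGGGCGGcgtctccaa
*Col4a4*/*Col4a3*, between the starts, chr1:82586850-82586920: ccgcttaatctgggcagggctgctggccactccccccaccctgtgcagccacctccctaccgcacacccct
*Col4a6*, upstream, chrX:141474096-141474326: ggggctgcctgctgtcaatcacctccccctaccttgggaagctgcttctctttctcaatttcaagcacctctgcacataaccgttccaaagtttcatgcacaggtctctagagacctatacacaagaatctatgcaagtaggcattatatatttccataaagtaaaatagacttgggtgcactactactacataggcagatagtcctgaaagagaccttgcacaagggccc
*Col4a5*, upstream, chrX:141475169-141475369: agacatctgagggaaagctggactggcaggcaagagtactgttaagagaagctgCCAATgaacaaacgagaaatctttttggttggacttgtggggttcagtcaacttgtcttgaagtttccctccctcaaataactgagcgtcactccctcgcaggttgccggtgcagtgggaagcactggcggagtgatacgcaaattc

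Promoter windows of 300 bases, 250 before and 50 after the start, were found for 5 of the 6 genes, all but *Col4a3*. The *Col4a5* window (chrX:141475169-141475468) was placed on another start than the GENCODE start given above. The windows of *Col4a1* and *Col4a2*, which overlap each other, had 74.0% and 73.7% GC, with 37 and 33 CpG dinucleotides. The *Col4a4* window had 63.3% GC and 14 CpG. The windows on the X chromosome were the poorest in GC, at 52.7% for *Col4a5* and 48.3% for *Col4a6*, with 11 and 3 CpG, while the median of all 32544 windows was 53.0% GC and 7 CpG. The GC box was found in 35.9% of all windows and occurred 3 times in that of *Col4a2*, 1 time in those of *Col4a1*, *Col4a5* and *Col4a6*, and not in that of *Col4a4*. The CCAAT box, found in 37.4% of all windows, occurred 1 time each in those of *Col4a1*, *Col4a2* and *Col4a5*. The TATA box letters (TATAAA, 13.6% of windows) and the AP-1 letters (TGANTCA, 7.79%), searched on both strands, were in none of these 5 windows. The GC boxes of the *Col4a5* and *Col4a6* windows lie outside the stretches printed above.

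The libraries held 23204551 to 32166517 counts. Counts were scaled with edgeR's TMM factors and are given as CPM, for which each count is divided by the library total times its TMM factor. The summed CPM of a library therefore depends on its TMM factor, and the libraries are not set to a common total by these factors. These factors were 0.781 to 0.917 in sham, 1.01 to 1.06 on day 1 and 1.10 to 1.17 on day 7. A count of 3, taken as the floor, corresponds to 0.0933 to 0.129 CPM before TMM scaling, and intervals and floors cover counting error only. Heart muscle was recognizable in every library, with the 10 cardiomyocyte markers summing to 83092 to 97471 CPM in sham, 51881 to 63511 on day 1 and 43195 to 51061 on day 7. Levels of different chains are compared in TPM, a relative abundance that allows for gene length. Fold changes (FC) come from edgeR's quasi-likelihood test on 1 fit of the 12 libraries, with Benjamini-Hochberg adjusted p over 15306 genes, and a gene was called differentially expressed (DEG) at an adjusted p below 0.05 with at least a 2-fold change. The words "rose" and "fell" are used for DEGs only.

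The pair *Col4a1* and *Col4a2* made up nearly all type IV collagen mRNA of the heart, was higher on day 1, and rose by day 7. *Col4a1* (ENSMUSG00000031502) was at 481, 528, 724 and 452 CPM in sham hearts, at 956, 1275, 952 and 849 on day 1, and at 1973, 1769, 1522 and 1687 on day 7. The 3 groups did not overlap, and each step was upward. *Col4a1* was 1.85-fold higher on day 1 than in sham (log2 FC 0.88, SE 0.156, edgeR adjusted p = 0.000591), which is below the 2-fold limit. It rose 3.18-fold on day 7 against sham (log2 FC 1.67, SE 0.159, edgeR adjusted p = 1.03e-06), and day 7 exceeded day 1 by a log2 FC of 0.79 (SE 0.156, adjusted p = 0.000950). Without sham replicate 3, the sham heart with the most *Col4a1*, the day 1 log2 FC was 1.05 and passed the 2-fold limit.

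*Col4a2* (ENSMUSG00000031503), the partner in the same trimer, followed the same course at a smaller FC. Its values were 410, 461, 585 and 393 CPM in sham, 757, 987, 755 and 650 on day 1, and 1318, 1155, 1009 and 1139 on day 7, again without overlap between groups. The day 1 log2 FC against sham was 0.77 (SE 0.146, edgeR adjusted p = 0.000968), below the 2-fold limit. On day 7 *Col4a2* rose 2.50-fold against sham (log2 FC 1.32, SE 0.148, edgeR adjusted p = 4.04e-06), and the day 7 value exceeded day 1 by a log2 FC of 0.55 (SE 0.145, adjusted p = 0.00649). Sham replicate 3 and day 1 replicate 2 were the highest hearts of their groups for both genes, and day 7 replicate 1 was the highest on day 7.

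**Figure D1:**
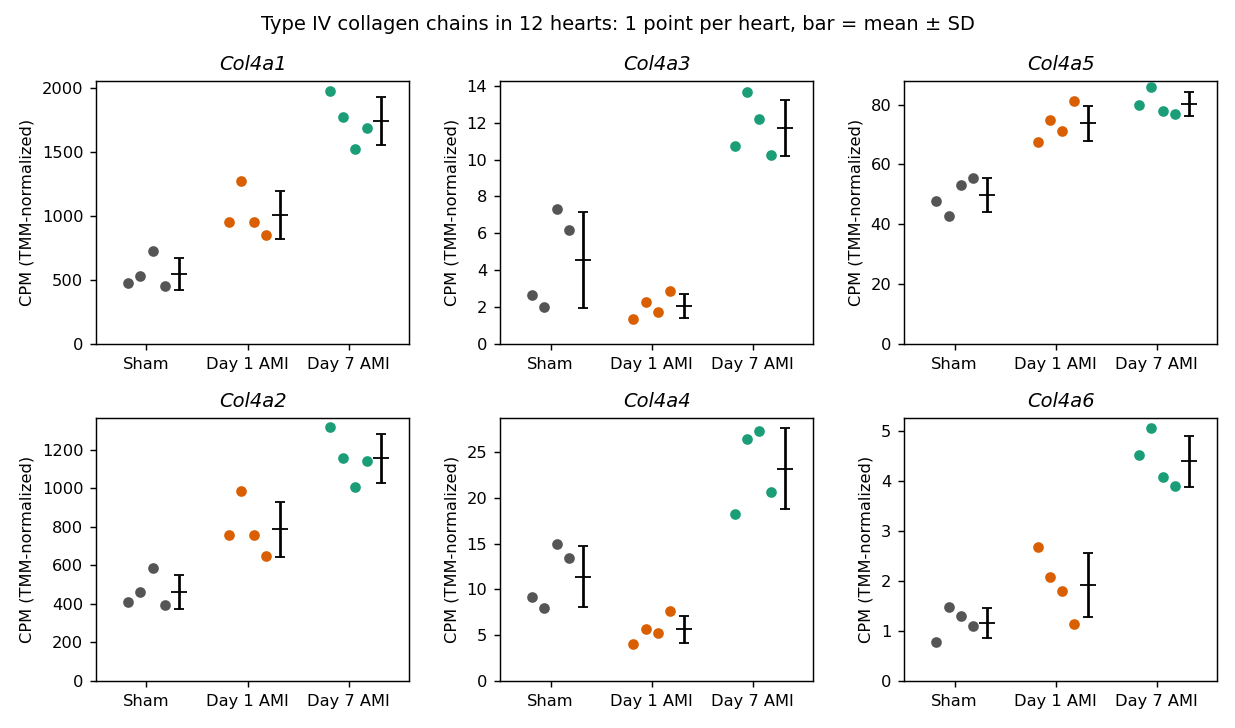
TMM-normalized CPM (linear axis from 0, a separate scale for each gene) of the 6 chains, with 1 point per heart and, beside the points, the mean ± SD of each group (n = 4). The columns are the 3 gene pairs. *Col4a3* and *Col4a4* have their lowest values in day 1 AMI, while *Col4a1*, *Col4a2*, *Col4a5* and *Col4a6* have their lowest in sham hearts.

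The *Col4a3* and *Col4a4* pair went the other way on day 1. *Col4a3* (ENSMUSG00000079465) was at 2.66, 2.01, 7.32 and 6.17 CPM in sham, 1.38, 2.30, 1.73 and 2.90 on day 1, and 10.8, 13.6, 12.2 and 10.2 on day 7. Sham replicates 3 and 4 lay above every day 1 heart, but sham replicates 1 and 2 lay within the day 1 range, so that sham and day 1 overlapped. All day 7 hearts were above all others. The log2 FC of *Col4a3* was -1.11 (SE 0.352) on day 1 and 1.37 (SE 0.330) on day 7 against sham, and 2.48 (SE 0.345) between day 7 and day 1. The day 1 value depended on single sham hearts, running from -1.37 without sham replicate 2 to -0.78 without sham replicate 3.

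*Col4a4* (ENSMUSG00000067158), whose start faces that of *Col4a3*, was at 9.18, 7.97, 14.9 and 13.4 CPM in sham, 4.05, 5.70, 5.23 and 7.63 on day 1, and 18.2, 26.5, 27.3 and 20.6 on day 7. Here the 3 groups did not overlap, although the highest day 1 heart (7.63) and the lowest sham heart (7.97) were close. The sham hearts with more *Col4a3* were also those with more *Col4a4*. The log2 FC of *Col4a4* was -1.001 (SE 0.224) on day 1 and 1.03 (SE 0.216) on day 7 against sham, and 2.03 (SE 0.223) between day 7 and day 1. As the values behind the choice of the family, these changes have no p.

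Summed markers of other cell types also differed between the groups in which *Col4a3* and *Col4a4* differed. Among 8 endothelial markers, the summed level was 940 to 1093 CPM in sham, 825 to 881 on day 1 and 1280 to 1424 on day 7. The sum had the same order of groups as *Col4a3* and *Col4a4*, but not every member did. On day 1 *Egfl7* and *Esam* were not below sham (log2 FC 0.11 and 0.07). On day 7 *Kdr* and *Tek* were not above it (-0.01 and -0.008). The remaining members had the order of the sum in their means. None of the 8 endothelial markers is a DEG against sham on either day by edgeR or DESeq2. By edgeR, 7.79% of all genes rose and 2.98% fell on day 1, and 15.3% and 5.88% on day 7. Limma on log2(TPM + 1) called 0 of the 8 on day 1 and 4 as higher on day 7, where it called 2668 of all 15306 genes as higher. At an unadjusted edgeR p below 0.05, 4 were lower on day 1 and 6 were higher on day 7. The share of all genes at that limit is not given here, so these counts do not set the list apart. The 7 pericyte markers summed to 1095 to 1311, 675 to 842 and 1116 to 1290 CPM in sham, day 1 and day 7 hearts, and the 8 fibroblast markers to 1082 to 1334, 1687 to 2315 and 7023 to 14494. The largest fibroblast values on day 7 were the collagen genes *Col1a1*, *Col1a2* and *Col3a1*, with means of 2892, 2524 and 3671 CPM. On day 1, 3 of the 8 rose (7.79% of all genes), while *Dcn* was lower (log2 FC -0.72). Most of the pericyte sum came from *Rgs5* and *Abcc9*, with means of 512 and 482 CPM in sham. Both were lower on day 1 (log2 FC -0.84 and -0.91). The pericyte markers *Notch3*, *Pdgfrb* and *Higd1b* went the other way on day 1 (0.27, 0.31 and 0.15), and the remaining ones were lower. Among pericyte markers on day 7, *Pdgfrb* rose (log2 FC 1.04) and *Abcc9* fell (-1.09), next to 15.3% and 5.88% of all genes. Each gene of these 3 lists was above 3 counts in at least 1 library. The part of these cells in the *Col4a3* and *Col4a4* values was not tested, and in whole hearts fewer cells of a type and less RNA per cell cannot be told apart.

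Transcripts of lung epithelium, another tissue whose basement membrane holds the *Col4a3* and *Col4a4* products, were present in the day 7 AMI hearts. *Sftpc*, the surfactant protein of alveolar type II cells, had 34 counts in day 7 replicate 1 and 132 in day 7 replicate 3 and 0 in the other 10 libraries. The 9 lung epithelial markers summed to 0.287 to 0.922 CPM in sham, 0.421 to 0.656 on day 1 and 2.41 to 9.08 on day 7, with 5 of the 9 at 0 in all 8 sham and day 1 libraries and *Scgb1a1*, which marks club cells, at 0 in all 12. The alveolar type I markers *Ager* and *Rtkn2* were higher in all 4 day 7 hearts, at 19 to 35 and 23 to 30 counts, against 2 to 14 and 2 to 7 counts in the other hearts. *Aqp5*, on the same list, had 7 to 28 counts in the day 7 hearts and 0 to 3 in the others. Day 7 replicates 2 and 4, with 0 *Sftpc* counts, had 13.6 and 10.2 CPM of *Col4a3* and 26.5 and 20.6 CPM of *Col4a4*, between the other day 7 hearts for *Col4a4* and on either side of them for *Col4a3*. With both hearts that held *Sftpc* left out, a fit added after the data were examined, the day 7 log2 FC against sham was 1.39 for *Col4a3* and 1.05 for *Col4a4*. Day 7 replicates 2 and 4, kept in that fit, still held 20 and 35 counts of *Ager*, 30 and 28 of *Rtkn2* and 14 and 7 of *Aqp5*. The fit therefore did not leave out all transcripts of the lung list. The part of the *Ager*, *Rtkn2* and *Aqp5* signal was not tested.

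**Figure D2:**
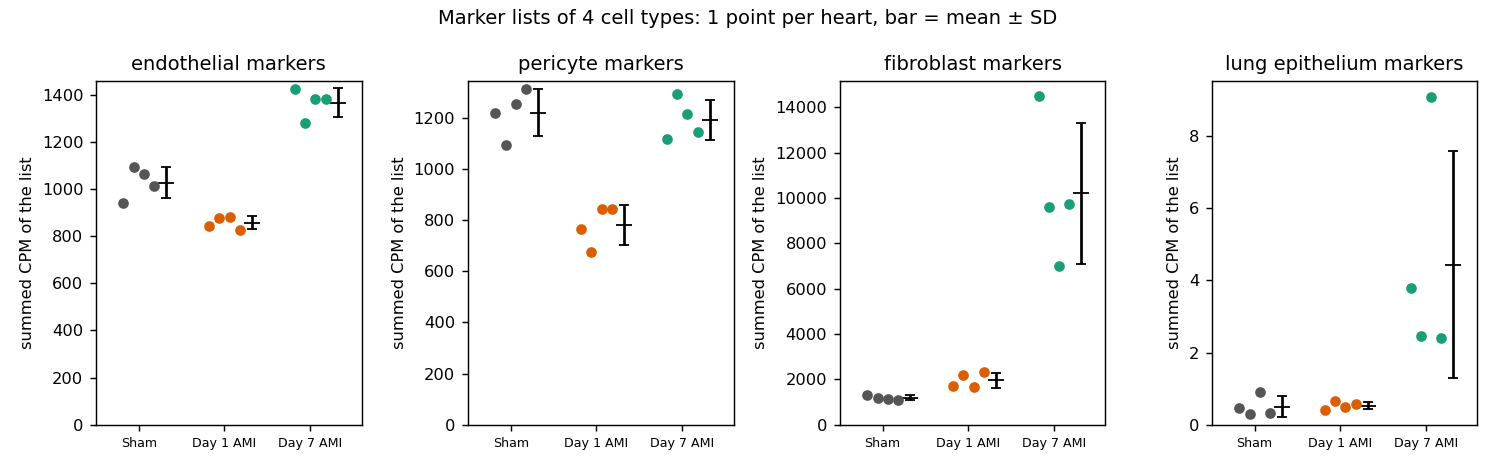
Summed TMM-normalized CPM (linear axis from 0, a separate scale for each list) of 8 endothelial, 7 pericyte, 8 fibroblast and 9 lung epithelial markers, with 1 point per heart and the mean ± SD of each group (n = 4). The endothelial sum is lowest on day 1 (825 to 881 CPM) and highest on day 7 (1280 to 1424 CPM), and the lung epithelial sum exceeds 2 CPM only on day 7.

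In the third pair, *Col4a5* was higher after AMI by less than 2-fold and *Col4a6* rose by day 7. *Col4a5* (ENSMUSG00000031274), whose product enters both minor trimers, was at 47.7, 42.8, 53.3 and 55.6 CPM in sham, 67.6, 74.7, 71.2 and 81.2 on day 1, and 79.9, 85.7, 77.9 and 76.8 on day 7. Both AMI groups lay above all sham hearts and overlapped each other. The log2 FC of *Col4a5* against sham was 0.56 (SE 0.0896, edgeR adjusted p = 0.000282) on day 1 and 0.68 (SE 0.0897, adjusted p = 1.71e-05) on day 7. Day 7 and day 1 differed by a log2 FC of 0.12 (SE 0.0886, adjusted p = 0.283), which did not pass the test.

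*Col4a6* (ENSMUSG00000031273) was the least abundant chain, with 15 to 36 counts in a sham library. It was at 0.782, 1.48, 1.31 and 1.10 CPM in sham, 2.68, 2.09, 1.80 and 1.14 on day 1, and 4.53, 5.06, 4.10 and 3.91 on day 7. The day 1 heart at 1.14 CPM lay within the sham range, and the day 7 hearts were all above the rest. On day 1 the log2 FC was 0.70 (SE 0.263, edgeR adjusted p = 0.0447), with overlapping groups. That p was above 0.05 with any 1 of 6 of the 8 hearts left out (sham replicate 1, 0.117, replicate 3, 0.0613, or replicate 4, 0.0944, and day 1 replicate 1, 0.145, replicate 2, 0.0979, or replicate 3, 0.0637), with no filter on low counts (0.0510), in a fit of the 2 groups alone (0.0835), by limma on log2(TPM + 1) (0.0533) and with the replicate block (0.0568). *Col4a6* rose 3.73-fold on day 7 against sham (log2 FC 1.90, SE 0.257, edgeR adjusted p = 2.24e-05) and rose from day 1 to day 7 (log2 FC 1.20, SE 0.239, adjusted p = 0.00100).

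Across the 4 tested chains, all 4 had an adjusted p below 0.05 on day 1 against sham, in each case upward and by less than 2-fold, though that of *Col4a6* did not stay below 0.05 under several alternatives. The share of all genes at an adjusted p below 0.05 alone is not given here, so this count does not set the chains apart. None of the 4 was a DEG on day 1 by edgeR or DESeq2. Limma on log2(TPM + 1) gave 2, where it called 957 of all 15306 genes as higher. As edgeR DEGs, 7.79% of all genes rose and 2.98% fell on day 1. On day 7, 3 of the 4 rose against sham, against a background of 15.3% of all genes that rose and 5.88% that fell. Between day 1 and day 7, 1 of the 4 rose, against 8.55% of all genes that rose and 2.69% that fell. Groups without overlap are more common still, since 19.6% of all genes were higher and 17.1% lower without overlap on day 1, 28.3% and 24.7% on day 7 against sham, and 23.5% and 20.9% between the AMI days. The 3 comparisons share hearts and are not independent of one another.

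**Figure D3:**
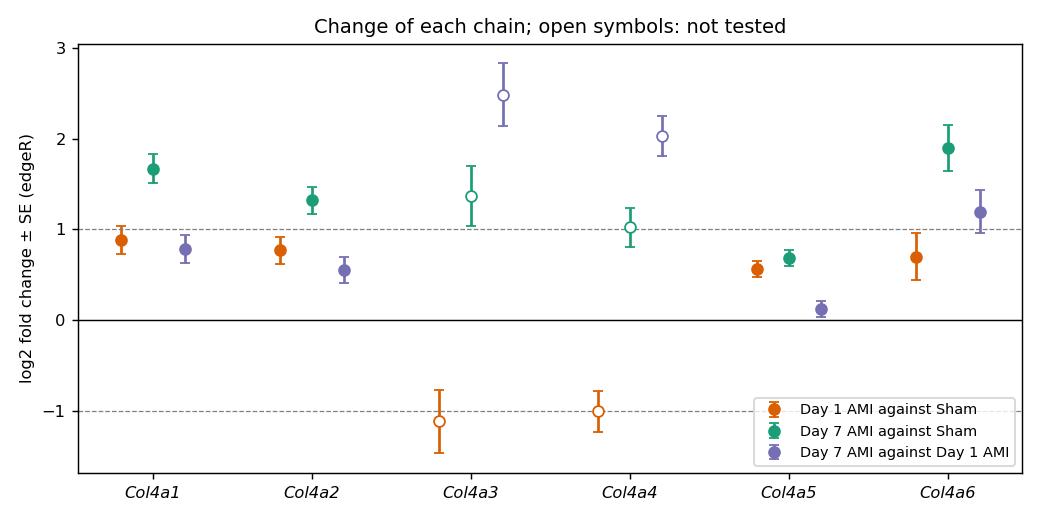
Log2 FC ± SE from edgeR for the 6 chains in the 3 comparisons, with dashed lines at a 2-fold change. Open symbols are *Col4a3* and *Col4a4*, which were not tested, and these are the chains below 0 on day 1 (-1.11 and -1.001).

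The ratio of paired chains within a heart does not depend on the scaling between libraries and was tested by exact two-sided permutation of 4 against 4 hearts, with 0.0286 as the smallest p possible and Benjamini-Hochberg adjustment over 9 tests. The ratio of *Col4a1* to *Col4a2* shifted toward *Col4a1* at each time. The log2 ratio was 0.23 ± 0.050 (SD, n = 4) in sham, 0.36 ± 0.025 on day 1 and 0.59 ± 0.020 on day 7, and the count ratio 1.18, 1.28 and 1.50. The lowest day 1 heart (0.33) was above the highest sham heart (0.31), and the lowest day 7 heart (0.57) above the highest day 1 heart (0.39). The exact permutation p was 0.0286 in each comparison (adjusted p = 0.0367). With TPM in place of counts the day 1 difference was 0.11 with an adjusted exact permutation p of 0.129, and the day 7 differences kept their calls. The start bases shared by both genes are 0.295% of the exon bases of *Col4a1* and 0.332% of those of *Col4a2*.

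The ratio of *Col4a5* to *Col4a6* was lower on day 7 than in both other groups. Its log2 value was 5.36 ± 0.437 (SD, n = 4) in sham, 5.26 ± 0.602 on day 1 and 4.17 ± 0.0954 on day 7. Sham and day 1 overlapped (exact permutation p = 0.800), whereas all day 7 hearts (4.06 to 4.27) were below all others, with an exact permutation p of 0.0286 and an adjusted p of 0.0367 against either group. By counts, *Col4a5* was 45.3-fold more abundant than *Col4a6* in sham and 18.3-fold on day 7. For the most abundant chain and *Col4a5*, the log2 ratio of *Col4a1* to *Col4a5* was 3.43 ± 0.327, 3.76 ± 0.291 and 4.43 ± 0.145 in sham, day 1 and day 7 hearts. The day 1 difference did not pass the test (exact permutation p = 0.171, adjusted p = 0.193), while day 7 differed from both groups (exact permutation p = 0.0286, adjusted p = 0.0367).

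The log2 ratio of *Col4a3* to *Col4a4* is given as a description. It was -1.76, -1.95, -1.02 and -1.11 in sham, -1.51, -1.28, -1.55 and -1.37 on day 1, and -0.76, -0.95, -1.15 and -1.01 on day 7. The sham hearts lay on both sides of the day 1 hearts, and the pair with more of both genes also had relatively more *Col4a3*. An antisense gene, C430014B12Rik, covers 5.65% of the exon bases of *Col4a3*, and it had 2 to 13 counts in a library. Whether reads were counted by strand is not given in the sources used here.

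**Figure D4:**
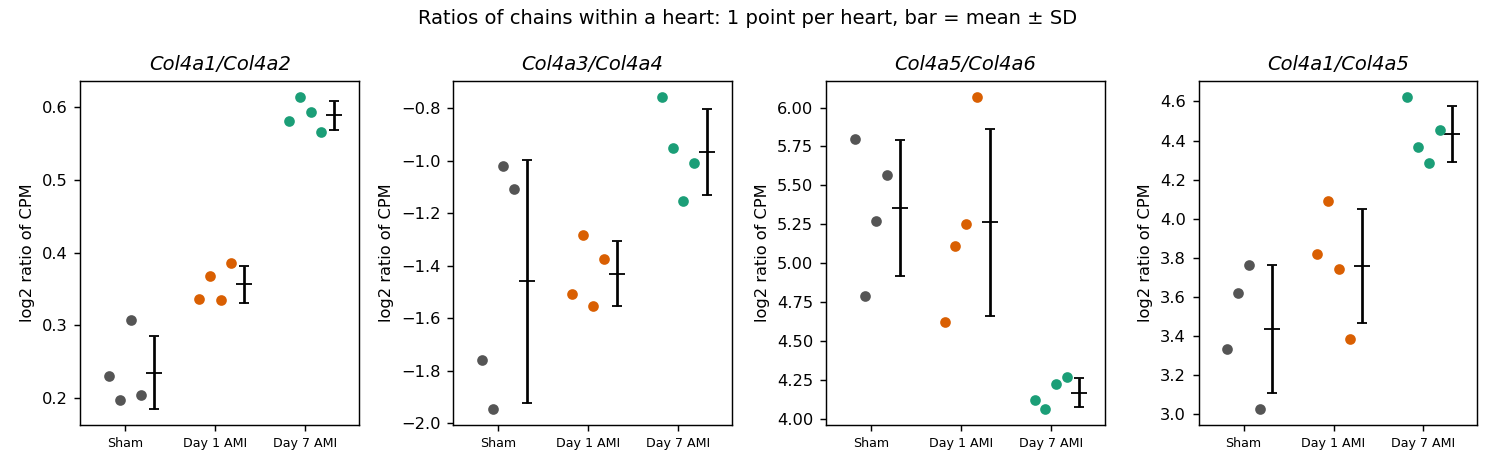
Log2 ratios of CPM (prior count 2) within each heart for *Col4a1*/*Col4a2*, *Col4a3*/*Col4a4*, *Col4a5*/*Col4a6* and *Col4a1*/*Col4a5*, each on its own axis that does not start at 0, with 1 point per heart and the mean ± SD (n = 4). *Col4a1*/*Col4a2* separates all 3 groups, while *Col4a5*/*Col4a6* and *Col4a1*/*Col4a5* separate day 7 AMI from the other 2 groups.

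On the per-length scale the family was dominated by 1 pair throughout. Summed TPM of the 6 chains was 193 ± 45.1 (SD, n = 4) in sham, 417 ± 71.9 on day 1 and 827 ± 90.7 on day 7. *Col4a1* took 51.1% ± 1.99 of this sum in sham, 53.8% ± 0.456 on day 1 and 59.9% ± 1.28 on day 7, and *Col4a2* took 42.6% ± 1.42, 41.7% ± 0.959 and 36.3% ± 1.58. *Col4a5* went from 5.18% ± 1.18 in sham to 4.06% ± 0.725 and 2.87% ± 0.275, so that its share was lowest where its level was highest. *Col4a3* and *Col4a4* together took 1.05% ± 0.436 in sham, 0.298% ± 0.0936 on day 1 and 0.745% ± 0.157 on day 7. Their day 7 share lay within the spread of the sham hearts (0.689% to 1.65%) or below it, at 0.588% to 0.940%. *Col4a6* took 0.108% ± 0.0336, 0.0981% ± 0.0314 and 0.133% ± 0.0120.

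The mean TPM ran in the order *Col4a1*, *Col4a2*, *Col4a5*, *Col4a4*, *Col4a3* and *Col4a6* in all 3 groups. In sham hearts the means were 99.0, 82.2, 9.67, 1.25, 0.75 and 0.21 TPM. Some neighbours in this order were not separated by the spread between hearts. The ranges of *Col4a1* and *Col4a2* overlapped in sham (77.3 to 135 and 66.3 to 107 TPM) and on day 1, those of *Col4a4* and *Col4a3* in sham (0.93 to 1.69 and 0.32 to 1.18 TPM) and day 1 AMI (0.54 to 1.09 and 0.28 to 0.79 TPM), and those of *Col4a3* and *Col4a6* on day 1 (0.28 to 0.79 and 0.25 to 0.55 TPM). In day 7 AMI hearts the 6 ranges did not overlap.

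Profiles over the 12 libraries were compared by the root-mean-square difference of centred log2 CPM, among 13813 protein-coding genes. For *Col4a3*, the gene nearest in profile of all 13812 others was *Col4a4* (0.34 on the log2 scale). The family was picked because both genes were low on day 1 and above sham on day 7. Their likeness therefore follows in part from the choice and cannot be set against that of the other pairs. Outside the family, *Islr*, which encodes a secreted leucine-rich repeat protein, came next (0.35), followed by the chemokine-scavenging receptor *Ackr4* (0.40), the linker histone *H1fx*, the protocadherin *Pcdh17* and *Itm2a*. *Islr* was at 30.8 ± 8.44 CPM (SD, n = 4) in sham, 17.4 ± 2.14 on day 1 and 89.2 ± 7.66 on day 7. For *Col4a4*, the nearest were the matrix protein gene *Ecm2* (0.26), the ferroxidase *Heph* (0.27), the ubiquitin ligase *Rnf144a*, *H1fx* and *Islr*, and *Col4a3* ranked 11. *Ecm2* was at 24.6 ± 5.26, 14.5 ± 2.65 and 47.5 ± 6.60 CPM in the 3 groups. In the other pairs, *Col4a2* ranked 5 for *Col4a1*, and *Col4a1* ranked 12 for *Col4a2*. *Col4a6* ranked 10850 for *Col4a5*, while at the same distance (0.66) *Col4a5* ranked 2454 for *Col4a6*. *Col4a6* was closer to *Col4a1*, which ranked 52 for it. These likenesses share libraries and scaling and are descriptions, and none of the 5 nearest genes of either chain was among the nearest 5 on log2(TPM + 1).

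Genes that build, cross-link, surround, bind and cleave type IV collagen were taken from lists fixed by name. The assembly list held 19 genes, most of them for the modification, folding and cross-linking of the chains. *Mia3* and *Col4a3bp*, also on it, fall outside that description and were not DEGs on either day. Of the 19, 2 (10.5%) rose on day 1 and 8 rose on day 7 against sham, next to 7.79% and 15.3% of all genes. The day 1 count was near the background. None of the 19 fell by edgeR, DESeq2 or limma on either day, and 2 on day 1 and 0 on day 7 were lower at an unadjusted p below 0.05. *Serpinh1*, the chaperone HSP47 of newly made collagen, rose on day 1 (log2 FC 1.36, SE 0.231, edgeR adjusted p = 0.000454) and was also a DEG on day 7 (log2 FC 1.34, adjusted p = 0.000185). It was at 240 ± 39.2 CPM (SD, n = 4) in sham, 619 ± 26.6 on day 1 and 609 ± 288 on day 7. The day 7 hearts ranged from 417 to 1037 CPM. *Pxdn*, the peroxidase that forms the sulfilimine cross-links between type IV collagen trimers, had a different course. It was at 94.7 ± 18.1 CPM (SD, n = 4) in sham and 107 ± 5.57 on day 1 (log2 FC 0.17, edgeR adjusted p = 0.288) and rose to 302 ± 42.0 on day 7 (log2 FC 1.67, SE 0.130, adjusted p = 1.86e-07). *Loxl2*, a lysyl oxidase that cross-links the same network, rose on day 7 by a log2 FC of 2.64 (SE 0.204, edgeR adjusted p = 1.84e-07), and the prolyl 3-hydroxylase *P3h3* by 1.84 (SE 0.158, adjusted p = 4.41e-07). The prolyl 4-hydroxylase subunit *P4ha3* had 1 to 3 counts in the sham libraries, at the floor, 8 to 24 on day 1 and 141 to 404 in day 7 AMI libraries.

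Of 27 other basement membrane genes, 24 were tested, and 2 rose and 1 fell on day 1 while 10 rose and 1 fell on day 7 against sham. Of all genes, 7.79% rose and 2.98% fell on day 1 and 15.3% rose and 5.88% fell on day 7, so that the day 1 counts were near the background. The gene that fell on both days, chosen for mention after its values were seen, was the laminin chain *Lamb3*, at 19.2, 9.49 and 6.43 CPM in sham, day 1 and day 7 hearts. *Col18a1*, the source of endostatin, rose on both days (log2 FC 1.41 and 2.65, edgeR adjusted p = 6.17e-05 and 6.78e-08). *Frem1*, *Sparc* and *Col15a1* rose on day 7 by log2 FCs of 4.13, 2.75 and 2.54. Of the linkers of the laminin and collagen networks, *Nid1* was at 151 ± 21.5 CPM (SD, n = 4) in sham, 163 ± 12.0 on day 1 and 427 ± 48.6 on day 7, and rose on day 7 (log2 FC 1.50, SE 0.113, edgeR adjusted p = 1.50e-07). The common laminin chain *Lamc1* rose on day 7 by a log2 FC of 1.04 (edgeR adjusted p = 2.44e-07), whereas perlecan, *Hspg2*, was higher by 0.71 (adjusted p = 7.33e-05), short of 2-fold. From day 1 to day 7, 10 of the 24 rose, against 8.55% of all genes.

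Of 11 receptors for collagen and basement membranes, 1 rose on day 1 and 4 rose on day 7, next to 7.79% and 15.3% of all genes. The day 1 count of this list (9.09%) was also near the background. The discoidin domain receptor *Ddr1* rose on day 1 (log2 FC 1.04, SE 0.116, edgeR adjusted p = 3.19e-05) and was at a log2 FC of 0.55 on day 7. The integrin chains *Itga2*, *Itga10*, *Itgb3* and *Itgav* rose on day 7, by log2 FCs of 2.39, 1.46, 1.25 and 1.01. None of the 11 fell by edgeR, DESeq2 or limma on either day, although 2 on day 1 and 1 on day 7 were lower at an unadjusted p below 0.05.

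Of 12 genes of matrix breakdown and its inhibitors, 11 were tested, and 6 rose and 1 fell on day 1 (7.79% and 2.98% of all genes) while 6 rose and 2 fell on day 7 (15.3% and 5.88% of all genes). *Timp1*, an inhibitor of matrix metalloproteinases, went from 2.89 CPM in sham to 100 on day 1 (log2 FC 5.09, SE 0.437, edgeR adjusted p = 6.43e-06) and 45.4 on day 7. The macrophage elastase *Mmp12* rose on both days (log2 FC 3.35 and 4.30). *Mmp2*, a gelatinase that cleaves type IV collagen, was at 58.2 ± 4.55 CPM (SD, n = 4) in sham and 57.1 ± 10.9 on day 1 (log2 FC -0.03, edgeR adjusted p = 0.894) and rose to 263 ± 45.4 on day 7 (log2 FC 2.18, SE 0.143, adjusted p = 5.23e-08). Its membrane-bound activator *Mmp14* rose on both days, with log2 FCs of 1.21 and 3.11. The other gelatinase, *Mmp9*, outside the rule for naming and mentioned after its values were seen, was at 2.14, 22.0 and 1.11 CPM in sham, day 1 and day 7 hearts. The genes of this list that fell against sham, named after their values were seen, were *Timp4* and *Mmp3*. *Timp4*, an inhibitor enriched in heart, fell on both days, from 37.6 ± 2.85 CPM in sham to 14.8 ± 9.23 on day 1 and 8.96 ± 2.10 on day 7 (mean ± SD, n = 4 each). The stromelysin *Mmp3* was at 7.32 ± 5.07 CPM in sham, rose to 19.8 ± 5.62 on day 1 and fell to 3.42 ± 0.76 on day 7. The *Mmp3* call on day 7 (edgeR adjusted p = 0.036) was lost without sham replicate 1 (0.14) or 2 (0.13), without day 7 replicate 1 (0.086), 2 (0.083) or 3 (0.051), with the replicate block (0.077), in a fit of the 2 groups alone (0.052), on library sizes alone (0.16), by DESeq2 (0.051) and by limma on log2(TPM + 1) (0.57) or log2(TPM + 0.1) (0.63). From day 1 to day 7, 3 of the 11 rose and 3 fell, next to 8.55% and 2.69% of all genes.

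**Figure D5:**
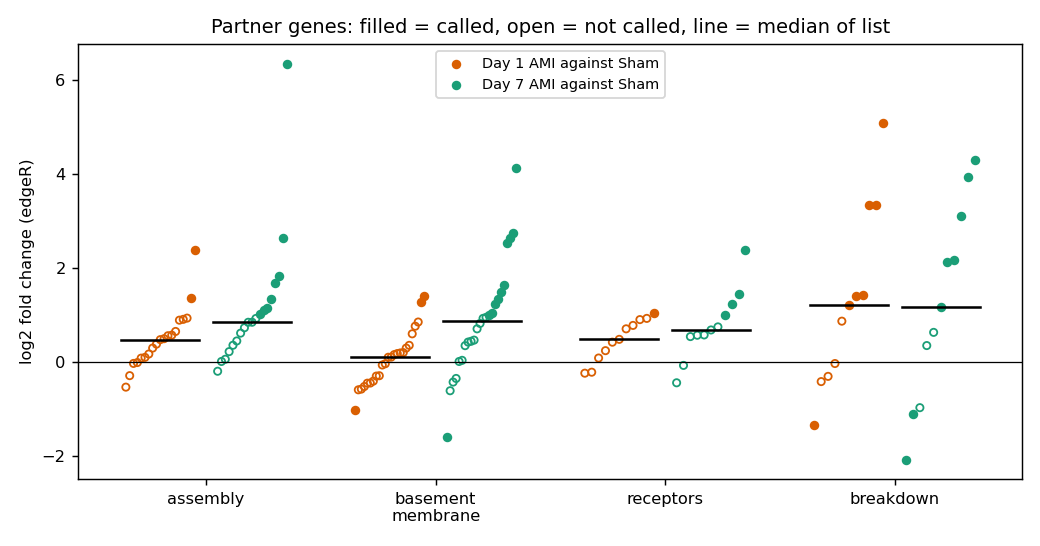
Log2 FC from edgeR of each tested gene of the 4 lists on day 1 and day 7 against sham, with filled points for DEGs, open points for other genes and a line at the median of each list, where the highest assembly point, *P4ha3*, is a fitted value against sham libraries of 1 to 3 counts and no bound. The medians on day 1 and day 7 are 0.48 and 0.85 for assembly, 0.11 and 0.88 for basement membrane, 0.49 and 0.69 for receptors and 1.21 and 1.17 for breakdown, where the medians of all tested genes are -0.01 and 0.03.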

How the data were processed

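Whole-heart RNA of 12 mice was analysed, with groups and replicate numbers from the labels. The authors trimmed reads with Cutadapt and aligned them with STAR 2.4.0j to GRCm38 (mm10). The authors deposited raw counts per gene without normalization and TPM from RSEM, rounded to 2 decimals. CASAVA 1.8 is named in the submitters' processing notes. The counting tool, the strand counted and the handling of reads with several alignments are not given in the sources used here, and such steps decide how reads in overlapping genes are shared.

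Counts were analysed with edgeR 4.0.16 in R 4.3.3 (TMM, filterByExpr by group, quasi-likelihood test, 1 fit of 3 groups). SEs are those implied by the F statistic. The study's DEG thresholds were kept. Log2 CPM for ratios and profiles used a prior count of 2. Ratios were tested by exact permutation in Python 3.11.15 with numpy 2.4.6. The alternatives were DESeq2 1.42.0 (the study's tool), other size factors, no filter, only the groups compared, limma 3.58.1 on log2(TPM + 1) and log2(TPM + 0.1), a block for the replicate number, TPM ratios, count shares, and each heart left out in turn. On simulated counts for day 7 AMI against sham (15306 genes, 200 changed 3-fold), edgeR recovered 194, DESeq2 193 and limma on log2(TPM + 1) 144, with 0, 0 and 1 false calls. The simulation gave every gene the same dispersion and no scaling difference between groups, unlike these hearts. It checks that the fits run and gives no error rate for these data.

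Of the identifiers, 53620 of 53801 are in GENCODE M21, which gave positions on GRCm38. Promoter sequence is from the RefSeq table of that build. The chains, partner lists and marker lists were chosen with earlier results of these data known. Genes named are the 6 chains, from each partner list the 4 DEGs with the largest FC on day 7 and the 2 on day 1 against sham, always *Pxdn*, *Serpinh1*, *Nid1*, *Hspg2* and *Lamc1*, the 5 genes nearest in profile to *Col4a3* and *Col4a4*, and markers at or near 0. A gene that this rule names is not reported here. No list was tested as a set. Counts of libraries in 1 group differed by far more than sampling noise (chi-square of at least 9.41 per degree of freedom over 18 pairs), and none was counted as a repeat. The labels do not say whether hearts of a group shared a litter or a surgery day, and p-values measure the spread between these hearts.

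Other marker lists were read the same way. Against sham on day 7, 8 of 10 cardiomyocyte markers fell, and 6 of 8 fibroblast, 5 of 7 macrophage, 2 of 6 smooth muscle and 3 of 6 mesothelial and epicardial markers rose, where 5.88% of all genes fell and 15.3% rose. Of the 10 cardiomyocyte markers, DESeq2 also called 8 as lower. Limma on log2(TPM + 1) called 0 of them as lower, where it called 111 of all 15306 genes as lower. The Schwann, adipocyte and skeletal muscle lists summed to at most 48.0, 5.83 and 7.19 CPM in any library.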

Additional observations from a re-analysis of the deposited data

How the results depend on the processing

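Over the alternatives, including each heart left out, 300 fold changes of the chains were recomputed. None changed sign, and 280 kept their side of the 2-fold limit or, for *Col4a3* and *Col4a4*, moved by less than the spread between hearts. Without TMM the median log2 FC of all genes shifted to 0.26 (day 1), 0.43 (day 7) and 0.15 (day 7 against day 1), and on log2(TPM + 1) to 0.23, 0.44 and 0.18, and *Col4a1*, *Col4a2* and *Col4a5* crossed the 2-fold limit in some comparisons. On day 1, *Col4a1* was at 1.15 (library sizes alone), 1.19 (TPM + 1) and 1.20 (TPM + 0.1) and *Col4a2* at 1.03, 1.09 and 1.09. On day 7 *Col4a5* was at 1.08, 1.21 and 1.28, *Col4a4* at 1.42 (library sizes alone) and 1.55 (TPM + 0.1), and *Col4a1* against day 1 at 1.14 and 1.15 (TPM + 1 and TPM + 0.1) but 0.91 on library sizes alone, the cause of which was not tested. On log2(TPM + 1), a scale that shrinks changes of low genes, *Col4a6* lost its calls on day 7 (0.80 against sham, 0.58 against day 1), and *Col4a3* and *Col4a4* moved to -0.24 and -0.33 on day 1 and to 1.18 and 1.43 between day 7 and day 1. DEGs of the partner lists on day 1 numbered 11 that rose and 2 that fell. Under library sizes alone, TPM + 1 and TPM + 0.1, 20, 17 and 21 rose and 1, 1 and 1 fell. Of all 15306 genes, 1192 rose and 456 fell on day 1 in the main fit. Under the same alternatives 1764, 957 and 1751 rose and 217, 63 and 145 fell. On day 7 against sham the list DEGs were 28 and 3, with 44 that rose under TPM + 0.1 and 1 that fell under TPM + 1. Of all genes, 2346 rose on day 7 in the main fit and 4163 under TPM + 0.1, while 900 fell in the main fit and 111 under TPM + 1. With TPM ratios, the *Col4a1*/*Col4a2* difference on day 1 was 0.11 and lost its call, and the *Col4a3*/*Col4a4* difference between day 7 and day 1 was 0.14 instead of 0.46, the cause of which was not tested. By summed counts, which favour long genes, shares on day 7 were 57.7% for *Col4a1*, 38.3% for *Col4a2*, 0.393% for *Col4a3*, 0.783% for *Col4a4* and 0.147% for *Col4a6*, with *Col4a4* at 1.07% in sham and 0.310% on day 1. On log2(TPM + 1), 0 of the 5 genes nearest to *Col4a3* and 0 of 5 for *Col4a4* stayed among the nearest 5.

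With each heart left out in turn, the *Col4a1* log2 FC on day 1 ran from 0.75 to 1.05. List members that fell on day 1 numbered 1 to 2 (1 without sham replicate 2 and 1 without day 1 replicate 2). Those that fell from day 1 to day 7 numbered 2 to 5 (5 without day 1 replicate 4, 3 with all hearts). Members that rose numbered 10 to 13 on day 1 (11 with all hearts) and 22 to 29 on day 7 against sham (28 with all hearts). From day 1 to day 7, 17 to 23 rose (20 with all hearts). The lowest of these day 7 counts, 22 and 17, were without day 7 replicate 1. In that fit 2261 and 1297 of all 15486 genes rose. An exact permutation test of a ratio in 3 hearts against 4 cannot go below p = 0.0571. Same-numbered hearts are different mice, and of 12 same-number pairs 4 had a correlation of deviations above 0.1 (-0.24 to 0.23), so that the numbers do not pair the hearts. With a replicate block no DEG call among the chains changed (*Col4a1* 0.88 on day 1 and 1.68 on day 7), and the adjusted p of *Col4a6* on day 1 was 0.0568. For *Col4a6*, 15 to 36 counts per sham library limit the precision.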
